A study of Homo sapiens with 2 samples.

Results

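The genes described here act in the sorting of membrane proteins at the endosome. They are SNF8, VPS25 and VPS36 of ESCRT-II, TSG101 and VPS28 of ESCRT-I, CHMP4B of ESCRT-III, the ATPase VPS4A, and the sorting nexins SNX14, SNX13 and SNX19. These 10 genes were taken from the 54261 gene symbols of the count table, and all 10 were among the 12620 genes tested, meaning that their average level reached 1 CPM. SNF8 and SNX14 were chosen by the study's junction reads of an alternative exon in these same libraries, and the other 8 were chosen as partners or relatives of these, with earlier results of the data known. The junction reads are not used here, so every change below is a change in the total count of a gene and says nothing of which exons its transcripts held.

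The cells were RKO, a line derived from a human colon carcinoma, given either siNC, the control siRNA, or siSRSF2, an siRNA against the splicing factor SRSF2. Both groups were the same cell line without other treatment, and each was a single library made from total RNA with a stranded mRNA kit. The control library held 19931360 counts on 19882 genes, and the siSRSF2 library held 14512802 counts on 19467 genes. A level is given as CPM, the count relative to the scaled library size, and a difference as the log2 ratio of siSRSF2 to control after adding 0.5 CPM to each. With 1 library per group there was no replicate error and no test was possible. Intervals are exact 95% intervals of the counts, cover counting error only, and leave out the variation between transfections. Reads were counted without molecular identifiers, so they were not independent molecules. Fewer cells of a kind and less RNA per cell cannot be told apart in such bulk libraries.

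ESCRT complexes recognise ubiquitin-tagged membrane proteins and carry them into vesicles that bud into the endosome, which then reach the lysosome. ESCRT-0 and ESCRT-I collect the cargo, ESCRT-II links ESCRT-I to ESCRT-III, ESCRT-III forms filaments that close the neck of the vesicle, and VPS4 takes these filaments apart. ESCRT-III and VPS4 also act in the last cut of cell division and in nuclear envelope repair. SNX13, SNX14, SNX19 and SNX25 form a separate family of sorting nexins, called RGS-type here after the RGS domain that all but SNX19 carry. They are anchored in membranes and sit at contacts between the endoplasmic reticulum and other organelles.

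The alternative exons of SNF8 and SNX14 are shown because the study listed these genes for them. Both were found at the same positions in GENCODE release 44 on GRCh38, on the minus strand. Capitals mark the exon and lower case the 20 bases of intron on each side.

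SNF8, chr17:48936835-48936953: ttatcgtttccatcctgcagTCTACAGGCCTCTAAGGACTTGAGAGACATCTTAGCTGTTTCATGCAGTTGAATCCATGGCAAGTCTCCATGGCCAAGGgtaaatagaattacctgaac
SNX14, chr6:85538818-85538884: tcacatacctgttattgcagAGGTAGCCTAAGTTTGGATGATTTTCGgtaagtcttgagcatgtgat

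The SNF8 exon spans chr17:48936855-48936933, 79 bases, which is not a multiple of 3. It lies in the 777-base intron between exons 4 and 5 of the 8 exons of SNF8-202, the MANE Select transcript, 86 bases after exon 4. Only 1 of the 17 annotated SNF8 transcripts holds it with these ends, a transcript annotated as a target of nonsense-mediated decay whose own annotated stop codon precedes the exon. When the exon was spliced into SNF8-202 by computation, the reading frame met a TGA at bases 21 to 23 of the exon, so that codon 124 was a stop, whereas SNF8-202 has 258 codons before its stop. That TGA lies 346 bases before the last exon junction. The SNX14 exon spans chr6:85538838-85538864, 27 bases, and is exon 16 of the 29 exons of the MANE Select transcript SNX14-201. It leaves the frame as it is: SNX14-201 has 946 codons with the exon and 937 without it, 9 fewer. Of 97 annotated SNX14 transcripts, 71 hold the exon, 22 of them annotated as coding, 41 as targets of nonsense-mediated decay and 8 as retained introns.

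**Figure D1:**
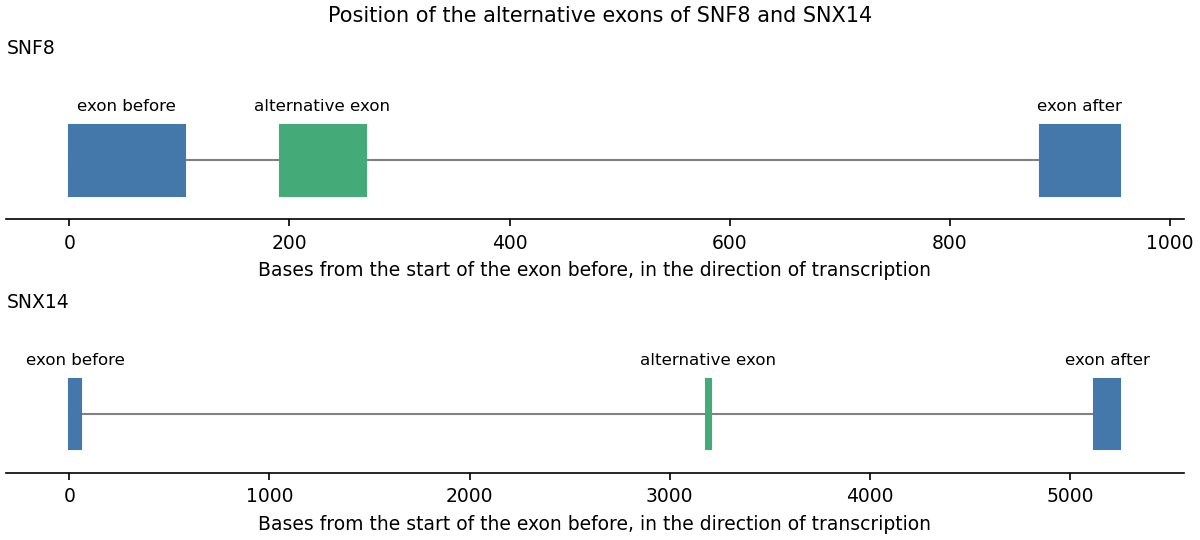
Position of the alternative exon (green) between its neighbouring exons (blue) in SNF8 and in SNX14, with the horizontal axis in bases from the start of the exon before. The 79-base SNF8 exon lies 86 bases after its neighbour, and the 27-base SNX14 exon stands between introns of 3120 and 1913 bases.

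The study's primers for SNX14 lie in exons 14 and 17 and thus on either side of the exon.

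SNX14-F: ttgctgaaggcccatacata
SNX14-R: ccaaatgattctccccttttc

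On SNX14-201 they enclose 241 bases, and 214 bases once exon 16 is left out. Neither alternative exon held GGNG or CCNG, 2 forms of the short sequence that SRSF2 is known to bind, searched in the sequence of the transcript. Other forms of this sequence were not searched. The SNF8 exon holds GCTG and GCAG, for example, so these counts do not show that either exon lacks sites for SRSF2. Among exon windows of the same length, 67.6% of 126994 windows of 79 bases held GGNG and 76.2% held CCNG, and of 154118 windows of 27 bases 32.7% and 40.7% did. The neighbouring exons held GGNG, overlapping copies counted. In SNF8 the exon before held 6 copies, a number reached by 5.50% of 98654 windows of its 105 bases, and the exon after held 3, reached by 17.8% of 132658 windows of its 73 bases. In SNX14 the exon before held 1 copy, as 57.4% of 143380 windows of its 59 bases did, and the exon after held 7, reached by 6.55% of 66239 windows of its length. CCNG occurred once in each neighbour of the SNF8 exon, where 84.3% and 73.7% of windows held it, and in neither neighbour of the SNX14 exon, where 66.7% and 89.8% did. These counts describe letters in exons and leave out the introns.

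To check the labels, the target of the siRNA was read first. SRSF2 (ENSG00000161547.17, chr17:76734115-76737333) had 1964 counts in the control and 713 in siSRSF2, or 98.5 and 49.1 CPM. The siSRSF2 library thus held 49.9% of the control level, a log2 ratio of -0.997 (95% interval -1.13 to -0.88). Of the epithelial markers, EPCAM, KRT18 and CDX2 had log2 ratios from 0.03 to 0.16. KRT8 was higher, with 547 counts in the control and 618 in siSRSF2, a log2 ratio of 0.62 (0.47 to 0.80), past 1.5-fold and above each of the 10 genes, and KRT19, CDH1, VIL1 and CDH17 had at most 10 counts in either library. Of 8 markers of blood, vessel and stromal cells, ACTA2 alone was tested, with 24 counts in the control and 41 in siSRSF2. Its log2 ratio was 0.96 (0.47 to 2.02), also past 1.5-fold, and the other 7 markers had at most 13 counts. The part of KRT8 and of these markers in the values below was not tested.

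Total RNA of the 10 genes differed little between the libraries. Their log2 ratios ran from -0.24 for CHMP4B to 0.36 for SNX13, with a median of 0.03 beside -0.02 over all genes tested. Of the 10, 6 were higher and 4 lower in siSRSF2. None was at least 1.5-fold higher or lower, beside 4.18% of all genes tested that were at least 1.5-fold higher and 3.52% that were at least 1.5-fold lower. The interval lay above equal levels for SNX13, VPS28 and VPS4A and below them for CHMP4B and SNX19. Over all genes tested, 21.0% had an interval above equal levels and 26.7% below, and among the 3820 genes with control counts in the range of the 10, 21.9% and 34.5% did. Counts of 3 above and 2 below in 10 give no reason to set these genes apart. SNF8 and SNX14, the genes chosen for an exon, both had intervals that held equal levels.

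**Figure D2:**
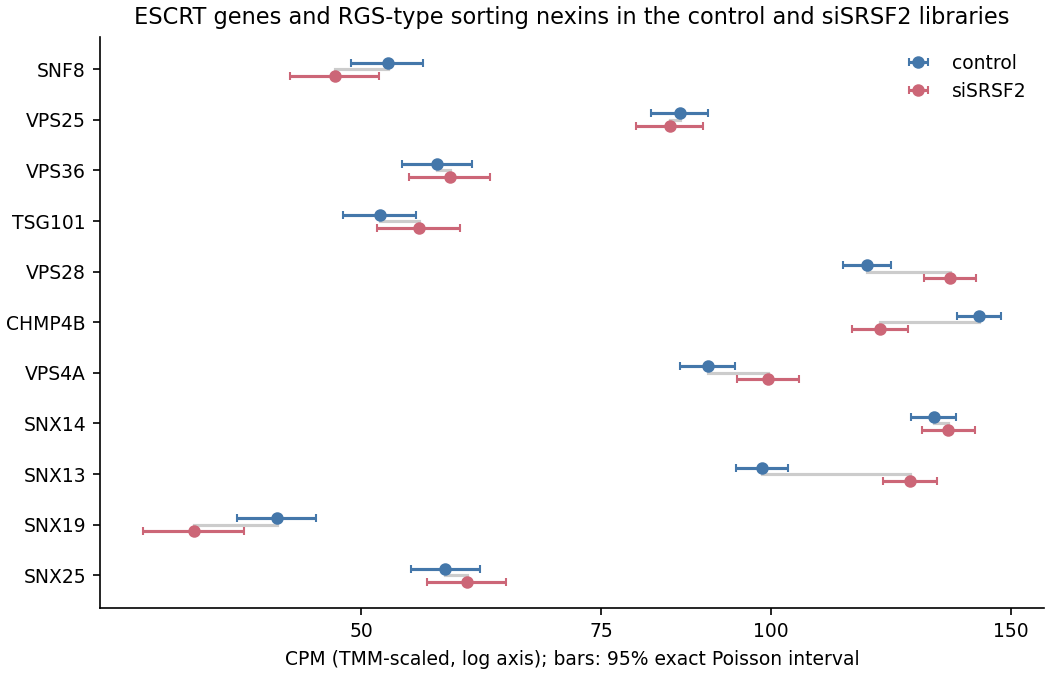
Level of each of the 10 genes and of SNX25 in the control (blue) and siSRSF2 (red) libraries, in CPM on a log axis, with exact 95% Poisson intervals that cover counting error only. SNX13, with 98.5 and 127 CPM, CHMP4B, with 142 and 120 CPM, VPS28, with 118 and 135 CPM, and, narrowly, VPS4A, with 89.8 and 99.5 CPM, show intervals that do not overlap, whereas SNX14 lies at 132 and 135 CPM.

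ESCRT-II is a complex of SNF8 (also called VPS22), VPS36 and VPS25. SNF8 (ENSG00000159210.10, chr17:48929316-48944842) had 1042 counts in the control and 694 in siSRSF2, or 52.3 and 47.8 CPM. Its log2 ratio was -0.13 (interval -0.27 to 0.01), the lowest of the complex. VPS36 (ENSG00000136100.14, chr13:52412602-52450634), which binds ubiquitin and membrane lipid, was at 56.8 and 58.1 CPM, a log2 ratio of 0.03 (-0.10 to 0.16). VPS25 (ENSG00000131475.7, chr17:42773449-42779599), the subunit that contacts ESCRT-III, was at 85.7 and 84.3 CPM, a log2 ratio of -0.02 (-0.13 to 0.08). With upper-quartile scaling the VPS25 ratio came to 0.0001, so it had no stable sign. All 3 intervals held equal levels, and no change of ESCRT-II was detectable at this depth.

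The subunits were also compared with each other as ratios of counts, which no scaling of the libraries can move. These pairs were picked after the values had been seen. The count of SNF8 over that of VPS25 was 0.610 in the control and 0.567 in siSRSF2, a change of 0.930-fold with an exact 95% interval of 0.823 to 1.05. Over VPS36 the SNF8 count was 0.920 and 0.823, a change of 0.895-fold (0.783 to 1.02). Both intervals held no change.

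TSG101 and VPS28 form the core of ESCRT-I, where TSG101 binds ubiquitin and the short peptide motifs of viral and cellular proteins, and VPS28 binds ESCRT-II. TSG101 (ENSG00000074319.13, chr11:18468336-18526951) had 1029 and 800 counts, or 51.6 and 55.1 CPM, a log2 ratio of 0.09 (-0.04 to 0.23). VPS28 (ENSG00000160948.14) on chromosome 8 had 2344 and 1964 counts, or 118 and 135 CPM, a log2 ratio of 0.20 (0.12 to 0.29). The VPS28 interval lay above equal levels and that of TSG101 did not. The ratio of the VPS28 to the TSG101 count nevertheless changed by 1.08-fold with an interval of 0.964 to 1.21, so a difference between these 2 partners was not detectable.

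CHMP4B is the main subunit of the ESCRT-III filament, and VPS4A is the ATPase that disassembles it. CHMP4B (ENSG00000101421.4, chr20:33811348-33854366) was lower in siSRSF2, with 2833 counts in the control and 1746 in siSRSF2, or 142 and 120 CPM. Its log2 ratio of -0.24 (-0.33 to -0.15) was the lowest of the 10. VPS4A (ENSG00000132612.16, chr16:69311350-69326939) was higher, with 1790 and 1444 counts, or 89.8 and 99.5 CPM, a log2 ratio of 0.15 (0.05 to 0.25). Paralogues were compared as ratios of counts, again picked after the values had been seen, which restate the single-gene values. CHMP4C, the form used in the abscission checkpoint, was at 47.7 and 49.8 CPM, and its ratio to CHMP4B changed by 1.23-fold (1.10 to 1.38). CHMP4A was at 19.9 and 17.8 CPM and its ratio to CHMP4B changed by 1.06-fold (0.890 to 1.25), so a difference between these paralogues was not detectable. VPS4B was at 75.3 and 71.4 CPM, and the ratio of VPS4A to VPS4B changed by 1.17-fold (1.05 to 1.30).

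**Figure D3:**
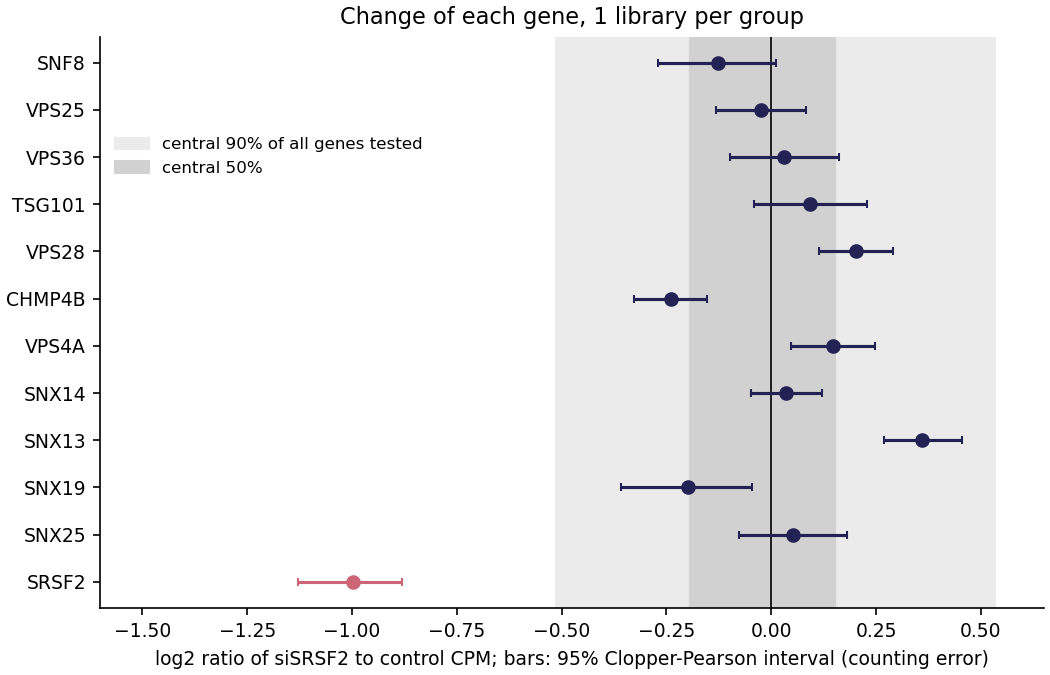
Log2 ratio of siSRSF2 to control for the 10 genes, SNX25 and SRSF2, with 95% Clopper-Pearson intervals, over the central 90% (light grey) and central 50% (darker grey) of the 12620 genes tested. All points but SRSF2 at -0.997 fall inside the central 90%, which runs from -0.51 to 0.53, and SNX13 at 0.36 lies farthest to the right.

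Among the RGS-type sorting nexins, SNX13 differed most between the libraries and SNX14 hardly at all. SNX14 (ENSG00000135317.14, chr6:85504776-85594156), whose loss causes a childhood ataxia and which acts in lipid handling at contacts with lipid droplets, had 2623 counts in the control and 1959 in siSRSF2. These were 132 and 135 CPM, a log2 ratio of 0.04 (-0.05 to 0.12). SNX13 (ENSG00000071189.21, chr7:17790761-17940501), which works at contacts with lysosomes and lipid droplets and limits the export of cholesterol from lysosomes, had 1963 and 1837 counts. It was 1.29-fold higher in siSRSF2, with 98.5 and 127 CPM and a log2 ratio of 0.36 (0.27 to 0.45), above 89.8% of all genes tested. SNX19 (ENSG00000120451.11, chr11:130866250-130916479), which tethers endolysosomes to the endoplasmic reticulum, was lower, with 864 and 547 counts, 43.4 and 37.7 CPM and a log2 ratio of -0.20 (-0.36 to -0.05). The remaining member of the family, SNX25, lay at 57.7 and 59.8 CPM with a log2 ratio of 0.05 (-0.08 to 0.18).

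Ratios of counts to SNX14, likewise picked after the values had been seen, restate these differences without scaling. In the control SNX13 had 0.748 counts for each count of SNX14, and in siSRSF2 0.938, a change of 1.25-fold (1.15 to 1.37). SNX19 over SNX14 changed by 0.848-fold (0.749 to 0.959), and SNX25 over SNX14 by 1.01-fold (0.909 to 1.13). The first 2 intervals left out no change and the last did not.

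Some of these counts share ground with other genes. In GENCODE, a readthrough gene on the same strand covers 19.3% of the exonic bases of SNX14, another covers 21.0% of those of VPS4A, and a long noncoding RNA on the same strand covers 23.1% of those of SNX19. COG8, on the opposite strand, covers 30.5% of the exonic bases of VPS4A, and a noncoding antisense gene covers 9.67% of those of SNF8. For CHMP4A, compared with CHMP4B above, a long noncoding RNA on the same strand covers 69.2% of the exonic bases and a readthrough gene 27.5%. The strand setting of the counting is not given in the sources used here, so reads from these stretches could not be assigned with certainty.

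Levels of different genes were compared per length, as TPM computed from the counts and the length of each gene's canonical transcript. In the control, VPS28 stood highest of the 10 genes at 320 TPM, followed by CHMP4B at 229 and VPS25 at 203. The median was 29.4 TPM over those of the genes tested that had a length. SNX14 had 98.4 TPM, TSG101 86.8, SNF8 66.0, VPS4A 56.4, SNX13 40.0 and VPS36 33.1. SNX19, whose canonical transcript is 15691 bases long, was lowest at 7.13 TPM. In siSRSF2, VPS25 at 197 TPM passed CHMP4B at 191, and VPS4A at 61.7 passed SNF8 at 59.6, with no other change of order. By their counting intervals, no neighbours in this order overlapped in the control, while in siSRSF2 those of VPS25 and CHMP4B, of SNX14 and TSG101 and of VPS4A and SNF8 did. The length used mattered. When the merged exons of all transcripts gave the length, CHMP4B was highest at 407 TPM and SNX14 was at 24.0 TPM, the lowest of the 10 but for SNX19.

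Within ESCRT-II the level of VPS25 per length was 67.2% of the summed TPM in the control and 68.0% in siSRSF2, SNF8 made up 21.8% and 20.5%, and VPS36 11.0% and 11.5%. By canonical length CHMP4B made up 65.8% of the CHMP4 paralogues in the control and 62.5% in siSRSF2, and by merged exons 72.2% and 68.5%. These shares rest in part on the CHMP4A counts, which share ground with other genes. VPS4A was 49.2% of the VPS4 pair in the control and 53.1% in siSRSF2. SNX14 made up 53.1% and 50.5% of the RGS-type family by canonical length but 20.8% and 19.8% by merged exons, where SNX25 was the largest at 45.4% and 43.7%. The share of SNX13 was higher in siSRSF2 with both lengths, from 21.6% to 25.7% and from 23.8% to 28.4%.

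**Figure D4:**
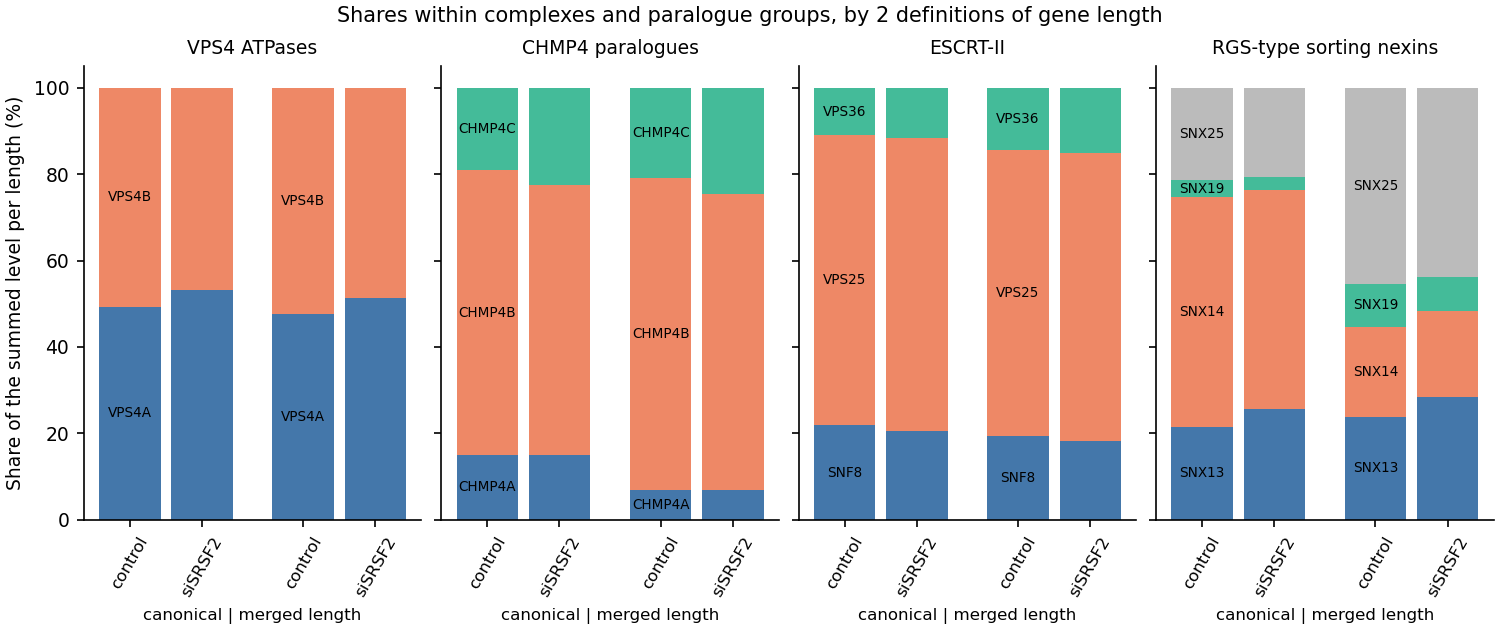
Share (%) of each gene in the summed TPM of its complex or paralogue group in the control and siSRSF2 libraries, with the left pair of bars by canonical transcript length and the right pair by merged exon length. The SNX14 segment is 53.1% of the control bar by canonical length and 20.8% by merged length, while within each pair the bars differ by at most 4.60 percentage points.

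The other genes of the pathway were taken from lists of known components. Across all ESCRT lists, 36 of 37 genes were tested, 18 were higher and 18 lower in siSRSF2, beside 46.2% higher of all genes tested, and the median log2 ratio was 0.01. Here and in the lists that follow, higher and lower give the sign of the ratio, also where the interval held equal levels. None was at least 1.5-fold changed, beside 4.18% higher and 3.52% lower of all genes tested. Of the 36, 8 intervals lay above and 5 below equal levels, beside 21.0% and 26.7% of all genes tested. ESCRT-0, the first cargo receptor, had ratios of -0.06 (-0.14 to 0.02) for HGS, -0.06 (-0.16 to 0.03) for STAM and -0.24 (-0.40 to -0.09) for STAM2, of which the last alone left out equal levels. In ESCRT-I, 7 of 9 genes were higher and the median was 0.11, but 3 intervals lay above and 1 below equal levels. The highest was MVB12B, a subunit that binds ubiquitin and membranes, with 470 counts in the control and 476 in the shallower siSRSF2 library, or 23.6 and 32.8 CPM, a log2 ratio of 0.47 (0.29 to 0.66). Of the alternative VPS37 subunits, VPS37A was at -0.11 with an interval just below equal levels (-0.22 to -0.0035), which held equal levels with upper-quartile scaling. The intervals of VPS37B (-0.02 to 0.24), VPS37C (-0.40 to 0.04) and VPS37D (-0.10 to 0.51) held equal levels. MVB12A, at 0.18, had an interval that only just lay above equal levels (0.0002 to 0.36), and UBAP1 was at 0.02 (-0.10 to 0.14).

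In ESCRT-III, 6 of the 11 genes tested were higher and 5 lower, with 3 intervals above and 2 below equal levels, beside 21.0% and 26.7% of all genes tested. CHMP2A and CHMP2B, late subunits that recruit VPS4, were higher, with log2 ratios of 0.31 (0.20 to 0.42) and 0.25 (0.17 to 0.34). CHMP7, which starts ESCRT-III assembly at the nuclear envelope, was lower at -0.21 (-0.30 to -0.12), beside CHMP4B. CHMP1A was at 0.12, CHMP1B at 0.05, CHMP6 at 0.12, CHMP5 at -0.01 and IST1 at -0.06. Of the VPS4 partners, BROX was highest at 0.33 (0.21 to 0.45) and STAMBP, a deubiquitinase that acts on ESCRT cargo, lowest at -0.20 (-0.30 to -0.10). PDCD6IP (ALIX), an adaptor that leads cargo to CHMP4 proteins, had the most counts of the ESCRT genes, 5461 and 4027, and a log2 ratio of 0.02. USP8 at -0.08, VTA1 at -0.07, PTPN23 at -0.06, CEP55 at -0.005 and STAMBPL1 at 0.08 had intervals that held equal levels.

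Among the sorting nexins outside the RGS family, several bring cargo back from endosomes, some of them with retromer. Of 26 sorting nexins outside that family 20 were tested, 7 higher and 13 lower, with a median of -0.04, beside 46.2% higher of all genes tested. Their intervals lay above equal levels in 3 and below in 5, beside 21.0% and 26.7% of all genes tested. SNX12 had 1141 counts in the control and 488 in siSRSF2, or 57.3 and 33.6 CPM, and at 58.7% of the control it was 1 of 2 among the 116 endosomal genes tested that were at least 1.5-fold lower, beside 3.52% of all genes tested. The log2 ratio of SNX12 was -0.76 (-0.92 to -0.61). SNX1 and SNX2, which bend membranes as partners of SNX5 and SNX6, were at 0.31 (0.22 to 0.40) and 0.29 (0.20 to 0.39), whereas SNX5 was at -0.04 and SNX6 at -0.13. SNX3, the close relative of SNX12, had 177 and 172 CPM and a log2 ratio of -0.04 (-0.11 to 0.04).

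Retromer and the Commander complex retrieve receptors from the endosome, and 18 of their 19 listed genes were tested, with 8 higher, 10 lower, a median of -0.06, and 1 interval above and 6 below equal levels, beside 21.0% and 26.7% of all genes tested. Their extremes were COMMD10 at 0.37 (0.13 to 0.62) and COMMD1 at -0.39 (-0.75 to -0.07), from 286 and 271 counts and from 204 and 112 counts.

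HOPS and CORVET tether endosomes to each other and to lysosomes. VPS39, a HOPS subunit for which the study also listed an exon in these libraries, had 1997 counts in the control and 1079 in siSRSF2, or 100.2 and 74.3 CPM. Its log2 ratio was -0.43 (-0.54 to -0.32), the lowest of the 10 genes of this list. VPS8, a CORVET subunit, was highest among those with a mean of at least 5 CPM, at 0.17 (0.03 to 0.32). VPS11, named after its values were seen, had 7 counts in the control and 36 in siSRSF2, or 0.351 and 2.48 CPM. It reached a mean of 1 CPM only through the library where it was high, so nothing is read from its difference. No other of the 116 endosomal genes was at least 1.5-fold higher, beside 4.18% of all genes tested.

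RAB GTPases mark the kinds of endosome. RAB11A, which directs recycling endosomes, was the other gene at least 1.5-fold lower, with 4944 counts in the control and 2144 in siSRSF2, or 248 and 148 CPM, a log2 ratio of -0.75 (-0.82 to -0.67). Its paralogue RAB11B was at 56.8 and 64.7 CPM and 0.19 (0.06 to 0.31). RAB5A, of early endosomes, was at 0.17, RAB7A, of late endosomes, at -0.08, and RAB4A, of fast recycling, was highest at 0.35 (0.15 to 0.58). Of the 12 RAB genes tested, 6 were higher and 6 lower, with 4 intervals above and 5 below equal levels, beside 21.0% and 26.7% of all genes tested, of which 46.2% were higher.

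Membrane proteins of late endosomes and lysosomes, the end of the ESCRT route, had a median of -0.07, with 6 higher and 10 lower of 16 tested and 8 intervals below and 1 above equal levels. With upper-quartile scaling these came to 5 and 3. CD63, carried on vesicles inside late endosomes, was at 648 and 622 CPM, and LAMP1 at 195 and 200 CPM. NPC1, which exports cholesterol from lysosomes, had a log2 ratio of -0.28 (-0.36 to -0.20). The ion channel TPCN1 was lowest at -0.33 (-0.51 to -0.17), and its paralogue TPCN2 was at 0.22 (-0.01 to 0.46). Over all lists, 116 of 126 endosomal genes were tested, of which 52 were higher and 64 lower, 20 with an interval above and 32 with one below equal levels, beside the 21.0% and 26.7% of all genes tested.

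**Figure D5:**
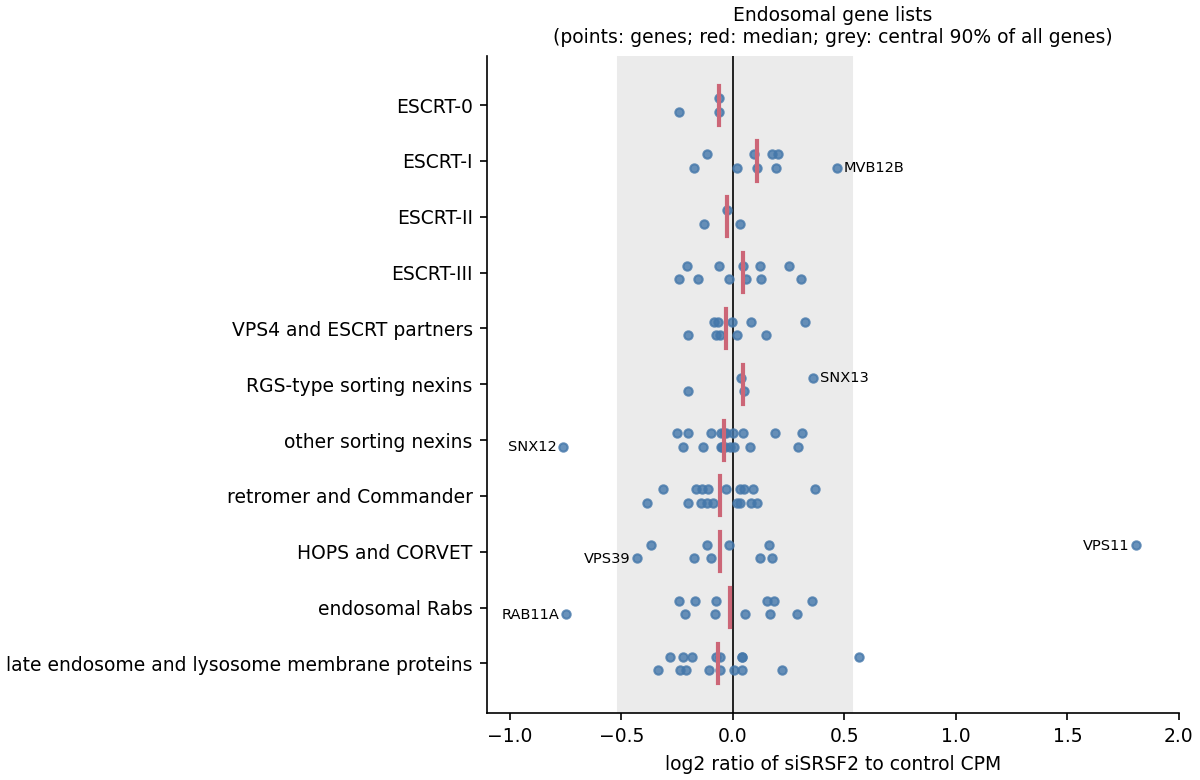
Log2 ratio of siSRSF2 to control for each tested gene of the endosomal lists (blue points), with the list's median (red line) and the central 90% of all genes tested (grey). The medians lie between -0.07 and 0.11, and SNX12 and RAB11A were more than 1.5-fold lower, while VPS11, far right, was tested only through its siSRSF2 value.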

How the data were processed

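One library per group of RKO cells was analysed, 2 in all. The authors deposited raw counts per gene symbol, without normalization. Per the study's methods, libraries were made with a stranded mRNA kit and read as 150 bp pairs, aligned to GRCh38 with HISAT2 (2.0.4 per the processing notes) and counted with HTSeq. Its strand setting is not given in the sources used here.

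CPM were computed with the TMM factors of edgeR 4.0.16 under R 4.3.3. The genes tested averaged 1 CPM or more, and log2 ratios used a pseudocount of 0.5 CPM. Intervals were exact (SciPy 1.17.1, 95%). A count of 0 allows up to 3 counts, or 0.151 CPM in the control and 0.207 CPM in siSRSF2. Lengths came from GENCODE release 44, and 89.5% of tested genes had one. The calculations were tested on simulated data. DESeq2 1.42.0 gave alternative size factors.

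The members and lists were chosen with earlier results of these data known. Genes named were SRSF2, the 10 members, SNX25, VPS39, the ESCRT genes, and in each other list the extremes with a mean of at least 5 CPM; paralogues and other genes of those lists (SNX2, SNX3, SNX5, SNX6, RAB5A, RAB7A, RAB11B, VPS11, CD63, LAMP1, LAPTM4B, NPC1) and the genes near 0 (SNX15, SNX18, SNX22, RAB4B, VPS35L) were added after their values were seen. Markers were epithelial and other-cell lists of 8 genes each.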

Additional observations from a re-analysis of the deposited data

How the results depend on the processing

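The scaling was changed to DESeq2 size factors, total counts, upper-quartile factors, or TMM without mitochondrial and the 20 most abundant genes. With these and with other pseudocounts (0.1 and 2 CPM) the SRSF2 ratio stayed between -1.003 and -0.973. Other filters (none, 5 CPM) do not enter the ratio of a single gene. All these settings kept the median of the 10 members between 0.03 and 0.06, and their number at least 1.5-fold changed at 0. VPS25 alone among them changed sign, to 0.0001 with upper-quartile factors, which made the ESCRT-II count 2 higher and 1 lower and left 0 ESCRT-I intervals below equal levels. The late endosome list then had 3 intervals above and 5 below equal levels. LAPTM4B (44 and 51 counts) passed 1.5-fold with upper-quartile factors and with 0.1 CPM, and SNX22 (9 and 1 counts) was 1.5-fold lower without a filter. Over all genes, the share at least 1.5-fold higher ran from 1.93% to 5.75% and lower from 1.74% to 4.33%, depending on pseudocount and filter. Leaving out a replicate could not be done with 1 library in a group. No paired analysis was possible because neither group held more than a single library. Depth limited low genes most, such as VPS11.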

Other observations

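Several listed genes were near 0 in both libraries. CHMP3, an ESCRT-III subunit, had 1 count in the control and 2 in siSRSF2, and 10.8% of its exonic bases are shared with the readthrough gene RNF103-CHMP3. SNX15 and RAB4B were listed at 0 in both libraries, and 39.0% of the exonic bases of SNX15 and 27.3% of those of RAB4B are shared with the readthrough genes ARL2-SNX15 and RAB4B-EGLN2. VPS35L, listed as C16orf62, had 0 and 1 counts. SNX18 was also at 0 in both. Whether reads of these genes were lost as ambiguous was not tested. A count of 0 allows up to 0.151 CPM in the control and 0.207 CPM in siSRSF2.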
